A study of Mus musculus with 4 samples.

Results

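Cholesterol and fatty acids are built from acetyl-CoA in the cytosol, and the 33 genes described here encode the enzymes of both routes and the proteins that set their expression. The genes were listed by name for their known role in these routes, and not by a threshold on measured values, although earlier results of these data were known when the list was drawn up. All 33 were among the 29011 genes of the deposited table and passed the filter on low values. Of them 23 belong to sterol synthesis (7 mevalonate steps, 11 steps from squalene to sterol, and 5 genes of SREBP control and sterol transport). The other 10 belong to fatty acid synthesis (4 synthesis steps and 6 desaturases and elongases). RNA was sequenced from the small intestine, taken as whole tissue at postnatal day 8. In the 2 Lats1/2 KO libraries (labelled VilCre+; Lats1/2-/-) the floxed genes Lats1 and Lats2 were deleted by a Cre that the Villin promoter drives in intestinal epithelium, so the other cell types of the organ keep them. Both encode Hippo pathway kinases that restrain the co-activators YAP and TAZ. The 2 control libraries hold tissue that the design text describes as floxed for both genes without Cre. The genotype label of these controls instead reads as a deletion of both genes, also without Cre. The groups are described here as in the design text. Column names give the group of a library but not which sample it is, so libraries are numbered within a group as names only. Nothing states that each library came from its own animal, so p-values measure only the spread between these libraries, which may be technical.

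Sterol synthesis condenses acetyl-CoA into mevalonate and isoprenoid units, joins these into squalene, closes the rings to lanosterol and trims lanosterol to cholesterol. The transcription factor SREBP2, encoded by Srebf2, is the main activator of these genes, and SREBP1, encoded by Srebf1, acts more on fatty acid genes. Scap escorts both factors out of the endoplasmic reticulum when membrane sterol is low, and Insig proteins hold the complex back when sterol is plentiful. Fatty acid synthesis turns citrate-derived acetyl-CoA into palmitate, which desaturases and elongases then modify. In the suckling intestine, which takes in a milk diet rich in fat and cholesterol, enterocytes both absorb and make these lipids.

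Most of the 33 genes were higher in the Lats1/2 KO libraries, and the few that fell were desaturases of the fatty acid route. Values are normalized counts, which the authors made by dividing reads by a size factor for each library. A gene is said to have risen or fallen where its adjusted p from limma, over all 16415 genes tested, was under 0.05. In sterol synthesis 17 of 23 genes rose and 0 fell, against a background of 15.2% of all tested genes that rose and 12.3% that fell. In fatty acid synthesis 7 of 10 rose and 2 fell. In all 26 of the 33 passed in either direction, against 27.5% of tested genes. Median log2 changes (Lats1/2 KO minus control, on the log2(value + 1) scale) were 1.12 for the sterol genes and 0.64 for the fatty acid genes, beside 0.00 over all tested genes. The highest 5% of log2 changes in the whole table held 14 of the 23 sterol genes and 3 of the 10 fatty acid genes. In 28 of the 33 genes both Lats1/2 KO libraries were above both controls, where 34.9% of tested genes had this order, and in 3 both were below, against 33.4% (68.3% in either direction). These libraries hold whole tissue, in which fewer cells of a type and less RNA per cell cannot be told apart. Sterol genes that rose numbered 17 by edgeR (15.3% of tested genes rose and 12.5% fell), by DESeq2 (12.9% and 10.7%) and in the authors' deposited table (12.8% and 10.2%), with 7 fatty acid genes rising and 2 falling in each. When libraries were left out in turn, 19 sterol genes rose without Lats1/2 KO replicate 1 (background 6.27% rising, 5.26% falling) and 17 without Lats1/2 KO replicate 2 (5.53% and 5.85%). The count was 17 without control replicate 1 (13.2% and 9.08%) and 18 without control replicate 2 (13.0% and 9.82%). Fatty acid genes that rose numbered 4 without Lats1/2 KO replicate 2, and 1 fell without either Lats1/2 KO library. Without the mean-variance trend of the fit 15 sterol and 4 fatty acid genes rose and 1 fatty acid gene fell (8.30% and 7.87%), and with no filter on low values 17 and 5 rose and 2 fell (5.94% and 4.54%).

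**Figure D1:**
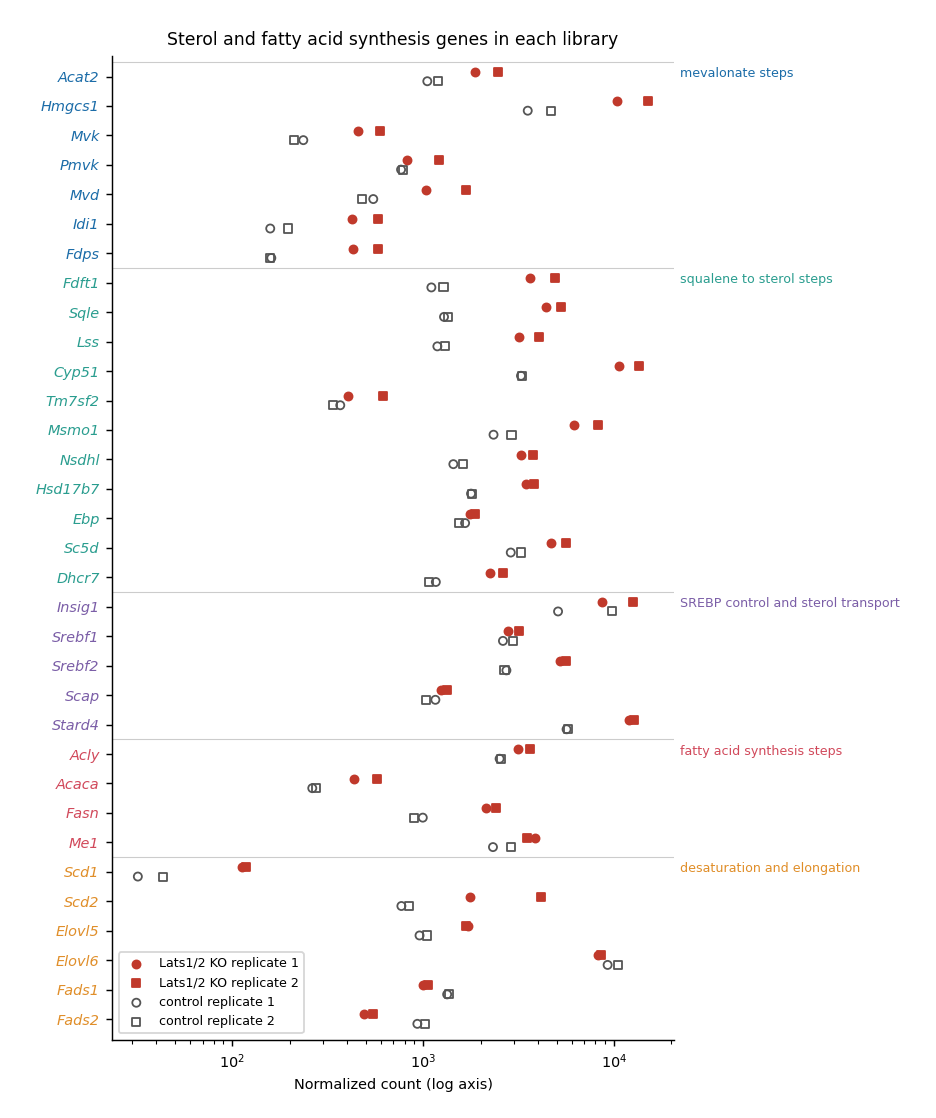
Normalized counts of the 33 genes in each of the 4 libraries, on a log axis, with genes grouped by role and Lats1/2 KO libraries drawn above controls. Filled red symbols lie right of open symbols in 28 genes, left of them in Elovl6, Fads1 and Fads2, and overlap them in Insig1 and Srebf1.

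The libraries held 30517967 and 32361940 recovered reads in Lats1/2 KO and 27811313 and 25135964 in control. Lats1 had 751 and 661 normalized counts in the Lats1/2 KO libraries, against 2316 and 2560.2 in the controls, low in both libraries labelled as knockout. Lats2 had 295 and 254 normalized counts in the Lats1/2 KO libraries, against 273 and 287 in the controls, with a log2 change of -0.03 (adjusted p = 0.868). Counts cover the whole gene and not the deleted part alone, for Lats1 as for Lats2. The Lats2 total therefore neither shows nor excludes its deletion. Why the Lats1 total fell and the Lats2 total did not was not tested.

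The stretches of DNA just upstream of these genes are where SREBP and its partner factors are known to act. Of the 33 genes 26 had an entry in the RefSeq promoter table (GRCm38.p6), 19 sterol and 7 fatty acid genes. The 250 bases before the start site are shown for 1 gene in each of the 5 roles, and for Fads2, the gene of the set that fell furthest. The gene shown for a role had the smallest adjusted p among those with an entry, Stard4 apart. Stard4 was left out of this choice by its chromosome (18), not by its values. Its adjusted p from limma (0.000698) was smaller than that of Srebf2 (0.000961), shown for their role. No match to any motif counted below was found for Stard4, whereas Srebf2 matched the sterol response element core and the CCAAT box. The sequences shown are therefore not representative of all 26. Letters run 5′ to 3′ along the strand of the gene, and capitals mark 8-letter sterol response element cores (TCACNCCA) and CCAAT boxes on either strand.
Hmgcs1, chr13:119690101-119690350, plus strand: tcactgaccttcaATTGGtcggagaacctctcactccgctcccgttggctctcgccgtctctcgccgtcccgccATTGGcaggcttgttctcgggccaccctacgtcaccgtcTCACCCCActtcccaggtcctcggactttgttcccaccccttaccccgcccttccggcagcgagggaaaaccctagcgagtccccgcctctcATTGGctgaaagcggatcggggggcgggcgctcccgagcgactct
Cyp51, chr5:4104698-4104947, minus strand: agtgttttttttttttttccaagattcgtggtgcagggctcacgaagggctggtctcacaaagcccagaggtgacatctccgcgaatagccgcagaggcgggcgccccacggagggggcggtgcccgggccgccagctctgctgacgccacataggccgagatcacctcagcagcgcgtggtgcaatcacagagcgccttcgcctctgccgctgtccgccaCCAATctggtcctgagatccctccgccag
Srebf2, chr15:82147019-82147268, plus strand: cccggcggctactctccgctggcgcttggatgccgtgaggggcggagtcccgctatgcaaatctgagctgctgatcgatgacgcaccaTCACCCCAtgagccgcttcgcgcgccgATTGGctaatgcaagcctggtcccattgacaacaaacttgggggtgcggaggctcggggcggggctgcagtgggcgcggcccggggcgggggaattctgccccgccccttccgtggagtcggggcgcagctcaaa
Fasn, chr11:120824548-120824797, minus strand: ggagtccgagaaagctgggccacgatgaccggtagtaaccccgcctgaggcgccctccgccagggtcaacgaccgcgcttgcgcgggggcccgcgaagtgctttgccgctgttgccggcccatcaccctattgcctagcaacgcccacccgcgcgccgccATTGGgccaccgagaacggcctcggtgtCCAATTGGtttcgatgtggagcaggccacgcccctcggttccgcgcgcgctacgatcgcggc
Elovl5, chr9:77917115-77917364, plus strand: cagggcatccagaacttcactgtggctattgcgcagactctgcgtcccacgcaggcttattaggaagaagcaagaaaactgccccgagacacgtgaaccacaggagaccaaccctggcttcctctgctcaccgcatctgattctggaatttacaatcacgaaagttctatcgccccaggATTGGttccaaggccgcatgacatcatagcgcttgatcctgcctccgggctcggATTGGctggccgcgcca
Fads2, chr19:10101504-10101753, minus strand: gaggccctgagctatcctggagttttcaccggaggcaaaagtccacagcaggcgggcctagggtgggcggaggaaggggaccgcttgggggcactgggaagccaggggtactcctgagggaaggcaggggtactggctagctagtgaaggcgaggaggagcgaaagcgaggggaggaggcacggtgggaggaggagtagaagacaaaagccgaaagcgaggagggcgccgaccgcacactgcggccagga
CCAAT, the motif bound by the SREBP partner NF-Y, was found in 20 of the 26 promoters, in 17 of 19 sterol genes and 3 of 7 fatty acid genes. The same window held it in 37.5% of all 27025 genes with a promoter entry and in 39.9% of the 11790 that were tested here. In the sequences above Hmgcs1 and Fasn each carry 3 copies, 1 pair of which overlaps on opposite strands in Fasn, and Fads2 carries 0. The core TCACNCCA was in 3 of 26 (Hmgcs1, Msmo1 and Srebf2), against 4.20% of all genes and 4.02% of those tested. Its 9-letter form TCACNCCAC was in 1, Hmgcs1, against 1.22% of all genes and 1.29% of those tested. The E-box CACGTG, which reads the same on both strands, was in 6 of 26, against 6.86% of all genes and 9.52% of those tested. The letters GGAATG, the core bound by the TEAD partners of YAP, were in 1 (Me1), against 14.4% of all genes and 13.1% of those tested. These matches describe the letters only and are not measured binding.

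Of the 7 mevalonate steps 6 rose and 0 fell, and both Lats1/2 KO libraries were above both controls in all 7 (34.9% of all tested genes had this order). Hmgcs1, the synthase that makes HMG-CoA on the way to mevalonate, has letters that match the sterol response element in the promoter printed above. It had 10413 and 15139.9 normalized counts in the Lats1/2 KO libraries, against 3534 and 4662 in the controls. The gene (chromosome 13, 119690379 to 119708260, plus strand of GRCm38) had a log2 change of 1.63 ± 0.21 (SE; adjusted p = 0.00525), a 3.09-fold rise. Its Lats1/2 KO libraries lay well apart, yet even the lower of them exceeded the higher control. Fdps, which makes farnesyl diphosphate, had 432 and 577 normalized counts in the Lats1/2 KO libraries, against 160.4 and 158 in the controls, with a log2 change of 1.64 ± 0.16 (SE; adjusted p = 0.00234). Its controls were nearly equal, and its levels are uncertain because it shares 1124 exon bases with the annotated gene Gm43738 on the same strand. Idi1, the isomerase that makes the allylic isoprenoid unit, had 425 and 584 normalized counts in the Lats1/2 KO libraries, against 158 and 197 in the controls, with a log2 change of 1.49 ± 0.19 (SE; adjusted p = 0.00541).

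Mvd, the decarboxylase that yields the first isoprenoid unit, had 1034 and 1678 normalized counts in the Lats1/2 KO libraries, against 549 and 477 in the controls. Its log2 change was 1.36 ± 0.23 (SE; adjusted p = 0.0115), and Lats1/2 KO replicate 2 held more of it than replicate 1. Without the mean-variance trend its adjusted p was 0.0554. Mvk, mevalonate kinase, had 456 and 597 normalized counts in the Lats1/2 KO libraries, against 236 and 211 in the controls, a log2 change of 1.22 ± 0.16 (SE; adjusted p = 0.00525). Acat2, the thiolase that starts the route and has a near copy in Acat3, had 1867 and 2458 normalized counts in the Lats1/2 KO libraries, against 1053 and 1198 in the controls. Its log2 change was 0.93 ± 0.15 (SE; adjusted p = 0.00929), with an adjusted p of 0.0502 without the mean-variance trend. Pmvk, the kinase after Mvk, had 824 and 1213 normalized counts in the Lats1/2 KO libraries, against 767 and 786 in the controls. Lats1/2 KO replicate 1 lay just above the controls, and the log2 change was 0.36 (95% interval -0.09 to 0.82, adjusted p = 0.192). Without that library the log2 change was 0.64 (adjusted p = 0.0321).

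From squalene to sterol, 9 of 11 genes rose, 0 fell, and both Lats1/2 KO libraries were above both controls in all 11, the order of 34.9% of all tested genes. Sqle, Cyp51 and Fdft1 were among the genes with the highest log2 changes of the 33. Sqle, squalene epoxidase, a rate-limiting oxygenase of the route (chromosome 15, 59315077 to 59331192, plus strand), had 4429 and 5261 normalized counts in the Lats1/2 KO libraries, against 1288 and 1357 in the controls. Its mean was 4845 ± 588 normalized counts in Lats1/2 KO and 1322 ± 48.8 in control (SD, n = 2 each), and its log2 change 1.87 ± 0.10 (SE; adjusted p = 0.000534), a 3.65-fold rise. Cyp51, the demethylase that acts on lanosterol (chromosome 5, 4081145 to 4104746, minus strand), had 10613 and 13440.2 normalized counts in the Lats1/2 KO libraries, against 3257 and 3309 in the controls. The controls were nearly equal, and the log2 change was 1.86 ± 0.12 (SE; adjusted p = 0.000814), 3.64-fold. Cyp51 shares 166 exon bases with Akap9 on the opposite strand.

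Fdft1, squalene synthase, had 3620.4 and 4935 normalized counts in the Lats1/2 KO libraries, against 1105 and 1280.1 in the controls, a log2 change of 1.83 ± 0.16 (SE; adjusted p = 0.00176). Fdft1 shares 774 exon bases with Ctsb on the opposite strand, and since a strand setting is not given in the sources used here, reads of the pair cannot be told apart there. Ctsb had 73091 and 79641 normalized counts in the Lats1/2 KO libraries, against 93704 and 94300 in the controls. Lss, the cyclase that closes the rings to lanosterol, had 3187 and 4044 normalized counts in the Lats1/2 KO libraries, against 1188 and 1305 in the controls, a log2 change of 1.53 ± 0.13 (SE; adjusted p = 0.00151). Msmo1, which oxidises the methyl groups left on the ring, had 6180.4 and 8251 normalized counts in the Lats1/2 KO libraries, against 2339 and 2905 in the controls, a log2 change of 1.45 ± 0.17 (SE; adjusted p = 0.00367). Lss and Msmo1 showed the same order of libraries, with Lats1/2 KO replicate 2 highest and control replicate 1 lowest.

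The later trimming steps had smaller log2 changes. Nsdhl, the dehydrogenase that works after Msmo1, had 3244 and 3752 normalized counts in the Lats1/2 KO libraries, against 1441 and 1616 in the controls, a 2.29-fold rise (adjusted p = 0.00157). Dhcr7, which makes cholesterol from its last precursor in one branch of the route, had 2246 and 2636 normalized counts in the Lats1/2 KO libraries, against 1167 and 1079 in the controls, a 2.17-fold rise (adjusted p = 0.00183). Hsd17b7, the ketone reductase of the demethylation complex, had 3479 and 3792 normalized counts in the Lats1/2 KO libraries, against 1783 and 1794 in the controls, a 2.03-fold rise (adjusted p = 0.00098). The libraries of each group were close together in all 3. Sc5d, the desaturase before Dhcr7, had 4672 and 5577 normalized counts in the Lats1/2 KO libraries, against 2879.6 and 3271 in the controls, and its 1.66-fold rise was the smallest of the 9 (adjusted p = 0.00838).

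The remaining enzymes of this stretch, Tm7sf2 and Ebp, did not pass the test. Tm7sf2, a sterol reductase of the route, had 402 and 617 normalized counts in the Lats1/2 KO libraries, against 368 and 338 in the controls (log2 change 0.50, 95% interval -0.02 to 1.02, adjusted p = 0.134). Without Lats1/2 KO replicate 1 it was 0.80 (adjusted p = 0.0342), and the gene shares 532 exon bases with its neighbour Vps51 on the same strand. Ebp, the isomerase before Sc5d, had 1754 and 1881 normalized counts in the Lats1/2 KO libraries, against 1660.3 and 1551 in the controls. Its log2 change of 0.18 (95% interval -0.01 to 0.36, adjusted p = 0.132) was the smallest of the 18 sterol enzymes, with the libraries of each group close together.

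**Figure D2:**
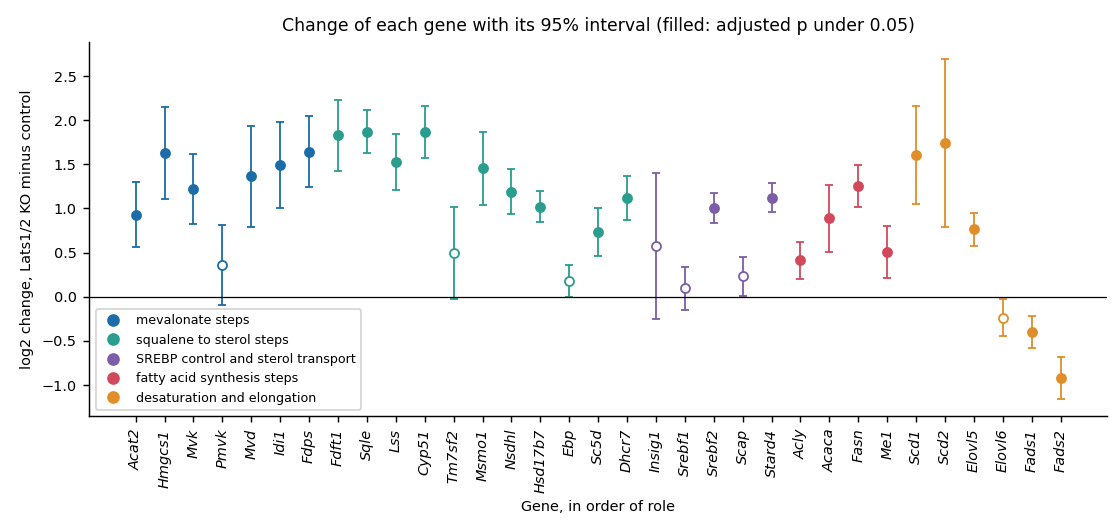
Log2 change (Lats1/2 KO minus control) of each gene with its 95% interval from limma, in order of role, with filled points for genes whose adjusted p was under 0.05. Sterol enzymes lie between 0.18 and 1.87, and the desaturases and elongases run from -0.92 for Fads2 to 1.74 for Scd2.

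Among the genes that control the route, Srebf2 rose and Srebf1 did not pass the test. Srebf2 (chromosome 15, 82147181 to 82205379, plus strand) had 5211 and 5633 normalized counts in the Lats1/2 KO libraries, against 2733 and 2671 in the controls. The groups lay far apart with little spread, and the log2 change was 1.004 ± 0.07 (SE; adjusted p = 0.000961), 2.00-fold. Srebf1 had 2778 and 3182 normalized counts in the Lats1/2 KO libraries, against 2621 and 2960.3 in the controls, so the groups overlapped, with a log2 change of 0.09 (95% interval -0.15 to 0.34, adjusted p = 0.515). Srebf1 shares 109 exon bases with Rai1 on the opposite strand. The count covers the gene, so its isoforms SREBP1a and SREBP1c were not told apart. The log2 ratio of Srebf2 to Srebf1 within a library was 0.91 and 0.82 in Lats1/2 KO, against 0.06 and -0.15 in control. The exact two-sided permutation p of this ratio was 0.333 (adjusted over the 4 pairs compared, 0.444). As 0.333 is the smallest p that 2 libraries against 2 allow, no pair could pass the test.

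Stard4, a carrier that moves cholesterol between membranes and a known SREBP2 target, had 12000.0 and 12727 normalized counts in the Lats1/2 KO libraries, against 5644 and 5723 in the controls. It rose 2.17-fold, a log2 change of 1.12 ± 0.07 (SE; adjusted p = 0.000698), with nearly equal libraries in each group. Scap, the escort, had 1241 and 1342 normalized counts in the Lats1/2 KO libraries, against 1160.3 and 1038 in the controls, a log2 change of 0.23 (adjusted p = 0.106). Insig1, the retention protein that is itself an SREBP target, had 8694 and 12639 normalized counts in the Lats1/2 KO libraries, against 5094 and 9738 in the controls. The control libraries were far apart, control replicate 2 was above Lats1/2 KO replicate 1, and the log2 change was 0.57 (95% interval -0.25 to 1.40, adjusted p = 0.249). Without control replicate 2 it was 1.04 (adjusted p = 0.0243), so the call turned on that library.

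All 4 fatty acid synthesis steps rose, each with both Lats1/2 KO libraries above both controls, the order of 34.9% of all tested genes. Fasn, the synthase that builds palmitate (chromosome 11, 120805846 to 120824547, minus strand), had 2124 and 2422 normalized counts in the Lats1/2 KO libraries, against 997 and 899.5 in the controls. Its log2 change was 1.26 ± 0.10 (SE; adjusted p = 0.00126), 2.39-fold, the largest of the 4, and its groups lay well apart. Acaca, the carboxylase that makes malonyl-CoA, had 436 and 571 normalized counts in the Lats1/2 KO libraries, against 263 and 275 in the controls, a log2 change of 0.89 ± 0.15 (SE; adjusted p = 0.0117). Without Lats1/2 KO replicate 2 the adjusted p of Acaca was 0.0515. Acly, which splits citrate into acetyl-CoA for both routes, had 3155 and 3609.9 normalized counts in the Lats1/2 KO libraries, against 2517 and 2552 in the controls, a log2 change of 0.41 ± 0.08 (SE; adjusted p = 0.0193). Me1, the malic enzyme that supplies NADPH, had 3880.3 and 3488 normalized counts in the Lats1/2 KO libraries, against 2324 and 2879 in the controls, a log2 change of 0.51 ± 0.12 (SE; adjusted p = 0.0302). Acly no longer passed when Lats1/2 KO replicate 2 was left out (adjusted p = 0.106). Me1 lost its call without either Lats1/2 KO library (adjusted p = 0.149 without replicate 1 and 0.084 without replicate 2) and with no filter on low values (0.0733). Neither Acly (0.0788) nor Me1 (0.0987) passed without the mean-variance trend.

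The 6 desaturases and elongases split by direction, and the groups did not overlap in any of them, as in 68.3% of all tested genes. Scd1 and Scd2, which put the double bond into stearate and palmitate, and Elovl5, which elongates polyunsaturated fatty acids, rose. Fads1 and Fads2, the desaturases that make long polyunsaturated fatty acids, fell. Scd1 had 113 and 118 normalized counts in the Lats1/2 KO libraries, against 32.1 and 43.4 in the controls, a log2 change of 1.60 ± 0.22 (SE; adjusted p = 0.00633) at a low level. Scd2 had 1754 and 4161 normalized counts in the Lats1/2 KO libraries, against 770.1 and 844 in the controls, a log2 change of 1.74 ± 0.38 (SE; adjusted p = 0.0249). Its Lats1/2 KO libraries differed by 2.37-fold, the widest gap within a group among the 33 genes, and its call was lost without control replicate 1 (adjusted p = 0.0597), with no filter (0.0657) and without the mean-variance trend (0.0866). Its log2 change was 2.37 without Lats1/2 KO replicate 1, 1.12 without Lats1/2 KO replicate 2, and 1.09 in the authors' deposited table. Scd1 and Scd2 are close paralogs, neighbours on chromosome 19, and how reads matching both were counted is not given in the sources used here.

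Elovl5 had 1728 and 1672 normalized counts in the Lats1/2 KO libraries, against 958 and 1046 in the controls, a log2 change of 0.76 ± 0.08 (SE; adjusted p = 0.00239). Fads2 (chromosome 19, 10062765 to 10101746, minus strand) had 492 and 544 normalized counts in the Lats1/2 KO libraries, against 934 and 1028 in the controls. It fell 1.89-fold, a log2 change of -0.92 ± 0.10 (SE; adjusted p = 0.00271), with all libraries of a group close together. Fads1, its neighbour on the opposite strand, had 995 and 1058 normalized counts in the Lats1/2 KO libraries, against 1337 and 1372 in the controls, a log2 change of -0.40 ± 0.07 (SE; adjusted p = 0.0137). Without either Lats1/2 KO library the call of Fads1 was lost (adjusted p = 0.0964 without replicate 1 and 0.0625 without replicate 2), as it was without the mean-variance trend (0.057). Elovl6, which elongates palmitate to stearate, had 8204 and 8585 normalized counts in the Lats1/2 KO libraries, against 9259 and 10534 in the controls. Both Lats1/2 KO libraries were below both controls (log2 change -0.23, adjusted p = 0.0963), and the adjusted p was 0.0306 without control replicate 1.

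Among related pairs, the log2 ratio of Elovl5 to Elovl6 was -2.25 and -2.36 in Lats1/2 KO, against -3.27 and -3.33 in control, a shift of 0.998. The ratio of Fads1 to Fads2 was 1.01 and 0.96 in Lats1/2 KO and 0.52 and 0.42 in control. Groups did not overlap in either ratio, and the exact permutation p was again 0.333. The ratio of Scd2 to Scd1 was 3.95 and 5.12 in Lats1/2 KO and 4.54 and 4.25 in control, so the controls lay between the Lats1/2 KO libraries (exact permutation p = 1).

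Set per kilobase of annotated exon, mean levels of these genes spanned a wide range. Insig1 had the highest mean of the 33, with 3449 normalized counts per kilobase in Lats1/2 KO and 2398 in control. Elovl6, next in control, had 1305 normalized counts per kilobase in Lats1/2 KO and 1539 in control. Hmgcs1 had 2781 normalized counts per kilobase in Lats1/2 KO and 892 in control, Cyp51 2724 normalized counts per kilobase in Lats1/2 KO and 744 in control and Stard4 2213 normalized counts per kilobase in Lats1/2 KO and 1017 in control, so that all 3 were above Elovl6 in Lats1/2 KO and below it in control. Scd2 had 541 normalized counts per kilobase in Lats1/2 KO and 148 in control, far above Scd1, the lowest of the 33, with 23.6 normalized counts per kilobase in Lats1/2 KO and 7.72 in control.

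Within the Lats1/2 KO group, most of the genes were higher in 1 library than in the other. Lats1/2 KO replicate 2 was above replicate 1 in 31 of the 33 genes, all but Me1 and Elovl5, and in all 23 sterol genes, where 53.3% of all tested genes had this order. The median log2 difference between these libraries was 0.34 for the sterol genes, 0.12 for the fatty acid genes and 0.01 over all tested genes. Between the controls it was 0.04 for the sterol genes, with replicate 2 higher in 15 of 23, and 0.13 for the fatty acid genes. Lats1/2 KO replicate 2 also held less smooth muscle RNA (summed markers 24762 normalized counts, against 33528 in replicate 1). It held more RNA of pancreatic acinar genes (13333, against 1652 in replicate 1), where the controls held 11983 and 9068. The median log2 difference was 0.40 for goblet markers (8 of 8 higher in replicate 2) and 0.33 for blood and immune markers (5 of 6). It was -0.42 for fat cell markers (1 of 5 higher), -0.30 for enteric neuron and glia markers (1 of 9) and -0.21 for endothelial markers (1 of 6). The part of these in the difference was not tested. The median log2 change of the sterol genes was 1.23 without Lats1/2 KO replicate 1 and 1.01 without replicate 2.

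**Figure D3:**
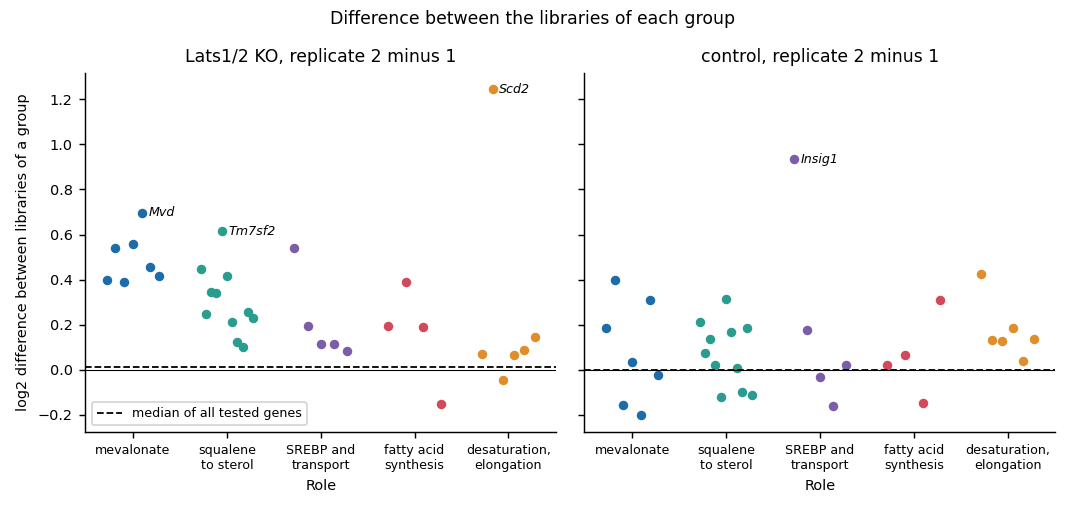
Log2 difference between the libraries of a group for each gene, by role, with Lats1/2 KO on the left and control on the right. Dashed lines give the median over all tested genes. In Lats1/2 KO 31 of 33 points are above 0, led by Scd2, and in control Insig1 stands highest.

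Other genes around these routes moved in both directions. Of 17 tested genes of the isoprenoid branches and of SREBP processing, 3 rose and 2 fell (29.4% called, near the 27.5% of all tested genes), with a median log2 change of 0.03. Fntb, a subunit of the farnesyl transferase, had 890.1 and 906 normalized counts in the Lats1/2 KO libraries, against 376 and 384 in the controls, a 2.36-fold rise (adjusted p = 0.000831). Aacs, which makes acetoacetyl-CoA from ketone bodies for lipid synthesis, rose with a log2 change of 0.85 ± 0.19 (SE; adjusted p = 0.0257), and Pdss1, of the ubiquinone side chain, with 0.36 ± 0.09 (SE; adjusted p = 0.0326). Insig2, the second retention protein, had 1662 and 1764 normalized counts in the Lats1/2 KO libraries, against 2975 and 2168 in the controls. It fell, with a log2 change of -0.57 ± 0.15 (SE; adjusted p = 0.0434). Without Lats1/2 KO replicate 2 Aacs, Pdss1 and Insig2 no longer passed, with adjusted p 0.0655, 0.107 and 0.136. Pdss1 and Insig2 also failed without Lats1/2 KO replicate 1 (0.176 and 0.172). Without control replicate 2 the values were 0.065 for Aacs and 0.0803 for Pdss1, and without control replicate 1 Pdss1 had 0.0582. Pdss1 also did not pass by DESeq2 (0.0744) or in the authors' deposited table (0.0746). With no filter, and without the mean-variance trend, Aacs, Pdss1 and Insig2 also failed (adjusted p 0.0648, 0.0611 and 0.1 with no filter, and 0.0852, 0.0732 and 0.122 without the trend).

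Of 18 genes of sterol uptake, ester and efflux, 5 rose and 3 fell (44.4% called, against 27.5% of all tested genes), with a median log2 change of -0.17. The 3 that fell were Cyp27a1, Abcg8 and Nr1h2 (log2 changes -0.89, -0.72 and -0.32, adjusted p 0.0314, 0.0324 and 0.0338). With no filter on low values 0 of the list fell (4.54% of all genes fell there). Nceh1, a cholesterol ester hydrolase, had 2505 and 2508 normalized counts in the Lats1/2 KO libraries, against 492 and 496 in the controls, a 5.07-fold rise, with a log2 change of 2.34 ± 0.07 (SE; adjusted p = 0.000167). Scarb1, a lipoprotein receptor, Npc2, a lysosomal sterol carrier, and Soat1, a cholesterol esterifying enzyme, rose with log2 changes of 0.74, 0.55 and 0.51 (adjusted p 0.00752, 0.0127 and 0.0139). Each lost its call without Lats1/2 KO replicate 2 (0.0549, 0.0629 and 0.0511), and Soat1 without replicate 1 (0.0885). Without the mean-variance trend Npc2 (0.0604) and Soat1 (0.0654) did not pass. Soat2, the esterifying enzyme of enterocytes, did not pass (log2 change -0.28, adjusted p = 0.106), and its adjusted p was 0.0116 without control replicate 2.

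Of 31 tested genes in the rest of fatty acid and NADPH metabolism, 7 rose and 2 fell, with a median log2 change of 0.19. The share called was 29.0%, near the 27.5% of all tested genes. Mlxipl, the glucose-sensing activator of lipogenic genes, had 1017 and 958 normalized counts in the Lats1/2 KO libraries, against 1502 and 1600.1 in the controls. It fell, with a log2 change of -0.65 ± 0.07 (SE; adjusted p = 0.00367), and its groups lay well apart. Elovl1, which elongates very long saturated chains, had 5201 and 5368 normalized counts in the Lats1/2 KO libraries, against 3729 and 3484 in the controls, a log2 change of 0.55 ± 0.07 (SE; adjusted p = 0.00423). G6pdx, the NADPH-producing enzyme that opens the pentose phosphate route, rose with a log2 change of 0.39 (adjusted p = 0.0172), and Acsl5, an acyl-CoA synthetase of enterocytes, fell with -0.53 (0.0269). Both lost their calls without Lats1/2 KO replicate 1 (0.0772 and 0.147), without replicate 2 (0.117 and 0.119), and without the mean-variance trend (0.0635 and 0.0529). Acacb, the carboxylase of the mitochondrial surface, and Acss2, which activates acetate, did not pass (log2 changes -0.55 and 0.17, adjusted p 0.25 and 0.467).

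Markers of the labelled tissue were present. The counts below stand against 15.2% of all tested genes that rose and 12.3% that fell, 27.5% in either direction. The 12 epithelial markers summed to 264099.9 and 265561 in the Lats1/2 KO libraries, against 205545 and 186557 in the controls. Of them 5 rose (Krt8, Krt18, Krt19, Krt20 and Cldn3), with a median log2 change of 0.20. The other 7 did not pass, and the groups overlapped in Epcam, Vil1, Cldn7, Cdx2 and Elf3. Krt8 had a mean of 39441 normalized counts in Lats1/2 KO and 15590 in control, and Epcam 36258 in Lats1/2 KO and 37265.5 in control. The higher sum thus does not stand for all the epithelial markers. The 8 proliferation markers summed to 17966 and 15902 in the Lats1/2 KO libraries, against 13886 and 13554 in the controls, and 4 rose. In the enterocyte list of 8 genes 5 fell and 1 rose, with sums of 916952 and 994466 in the Lats1/2 KO libraries, against 1160887 and 1168972 in the controls. All 8 goblet markers fell, summing to 45113 and 67859.6 in the Lats1/2 KO libraries, against 118964 and 137625 in the controls.

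Smooth muscle markers overlapped between the groups in all 8 genes. The endothelial and the blood and immune lists each had 33.3% called, near the 27.5% of all tested genes. Fibroblast markers summed to 17363 and 15543 in the Lats1/2 KO libraries, against 21168 and 19419 in the controls, and 3 of 7 fell. Endothelial markers summed to 3865 and 3483 in the Lats1/2 KO libraries, against 4243 and 4934 in the controls, with 2 of 6 falling, and blood and immune markers to 8566 and 12929 in the Lats1/2 KO libraries, against 12153 and 14384 in the controls, with 2 of 6 tested falling. Enteric neuron and glia markers summed to 3475 and 3354 in the Lats1/2 KO libraries, against 6684 and 5759 in the controls. S100b, which fell (299 and 401 normalized counts in Lats1/2 KO and 2035 and 2240.2 in control), was the 1 gene of those 9 that passed. Pancreatic acinar markers ranged widely, at 1652 and 13333 in the Lats1/2 KO libraries, against 11983 and 9068 in the controls, and 0 of 6 tested passed.

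Fat cells, which also make fatty acids, occur in the mesentery of the gut. Of 10 listed fat cell markers 6 were measured, and 0 of 5 tested passed, with a median log2 change of -0.34. Both Lats1/2 KO libraries were above both controls in 1 of these 5, Cidec (34.9% of all tested genes). They were below in 1, Fabp4 (33.4%), and the groups overlapped in 3. Fabp4 had 432 and 323 normalized counts in the Lats1/2 KO libraries, against 620 and 519 in the controls (log2 change -0.60, adjusted p = 0.051). Plin1, the lipid droplet coat of fat cells, had 3.70 and 1.81 normalized counts in the Lats1/2 KO libraries, against 0 and 1.14 in the controls. The fat cell markers summed to 10200.5 and 10625 in the Lats1/2 KO libraries, against 7443 and 9786 in the controls, almost wholly from Cidec (9679 and 10241 in Lats1/2 KO and 6744 and 9165 in control), which enterocytes can also express. Plin1 was at 0 in control replicate 1, and none of the measured markers was at 0 in all 4 libraries. The part of epithelial, proliferation and the other marker differences in the sterol and fatty acid results was not tested. The summed sterol enzymes stood at 59279 and 76431 in the Lats1/2 KO libraries, against 24934 and 27495 in the controls. The ratio of the sums was 2.59, beside 1.35 for the epithelial markers and 1.23 for the proliferation markers. The epithelial sum includes Krt8, Krt18, Krt19 and Krt20, which rose.

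**Figure D4:**
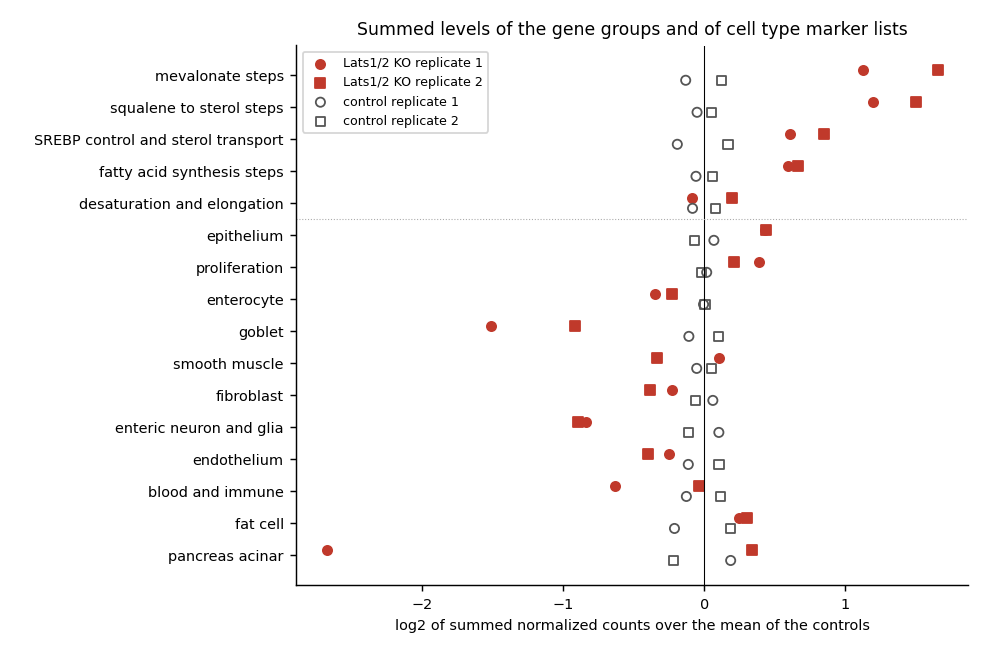
Summed normalized counts of each gene group and marker list in each library, as log2 over the mean of the controls, with Lats1/2 KO libraries (filled) drawn above controls (open). The mevalonate and squalene-to-sterol groups lie furthest right in Lats1/2 KO. The goblet, enterocyte, fibroblast, endothelium and enteric neuron and glia lists lie left of both controls in both Lats1/2 KO libraries. The pancreas acinar list lies furthest left, in Lats1/2 KO replicate 1 alone.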

How the data were processed

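Per the submitters' processing notes, STAR, featureCounts and DESeq2 were used with build GRCm38. The sources used here give no versions, no strand setting and no treatment of reads that match several genes. Per the file headers, the deposited table holds normalized counts (a signal: gene counts that the authors divided by a size factor) and their log2 fold change, fold ratio and adjusted p-value. Every value is a whole multiple of its column's smallest (100% within 0.001 reads), which gave whole reads. Libraries of a group differed by more than sampling noise (chi-square per degree of freedom 14.9 in Lats1/2 KO and 22.6 in control).

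limma 3.58.1 (R 4.3.3, mean-variance trend) was fitted to log2(normalized count + 1) of 16415 genes with at least 10 in at least 2 libraries, with Benjamini-Hochberg adjustment over all of them and a threshold of 0.05. Spread rested on 2 residual and 3.53 prior degrees of freedom. The fit was also run on simulated counts, with the same extra spread set for every gene. These libraries are not known to vary in that way, so the run does not measure how the fit behaves on them. edgeR 4.0.16 and DESeq2 1.42.0 were run on the recovered reads. Exon lengths and coordinates are from GENCODE vM21 (GRCm38).

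Members and lists were chosen with earlier results of these data known. All members are named. Of each other list the 4 smallest adjusted p past the threshold are named, plus Insig2, Soat1, Soat2, Acacb, Acss2 and Mlxipl. The 3 sterol uptake, ester and efflux genes that fell are named as well. Some genes of these routes are not reported here.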

Additional observations from a re-analysis of the deposited data

How the results depend on the processing

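Of 429 values of the 33 genes under 13 alternatives, 409 kept direction and side of the threshold, 15 lost the call, 4 gained it and 1 turned: Srebf1, which ranged from -0.0036 (without Lats1/2 KO replicate 2) to 0.19 without a library. Of the 26 called genes, 20 kept their call in all settings that used 4 libraries. Without each library in turn, sterol genes that rose numbered 17 to 19 and those that fell 0. Fatty acid genes that rose numbered 4 to 7 and fell 1 to 3, and without the mean-variance trend 4 rose and 1 fell. Over all genes, 908 to 2171 rose and 864 to 1612 fell without a library. Without the trend 1362 rose and 1292 fell, and 1318 fell with no filter.

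The isoprenoid and SREBP list had 1 to 2 rising and 0 to 1 falling without a library, 1 and 0 with no filter or no trend, and 1 falling with library size scaling, edgeR, DESeq2 and the authors' deposited table, an alternative chosen after seeing the data. The sterol uptake list had 1 to 4 rising and 0 to 3 falling without a library, 2 and 1 without the trend, and 0 falling with no filter. The other fatty acid list had 2 to 4 rising and 1 to 2 falling without a library, 1 and 1 without the trend, and 3 rising with no filter. The median log2 change of the fatty acid genes ranged from 0.55 to 0.74 and the log2 shift of the Scd2 to Scd1 ratio from -0.45 to 0.73 without a library. The cause of these changes was not tested. A lone library left in a group is assumed to vary like the other group. No paired analysis was possible because the columns carry no replicate number shared between the groups.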
